A study of Homo sapiens with 6 samples.

Results

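The 10 genes described here encode the central steps of the eicosanoid pathway, through which cells turn arachidonic acid into prostaglandins, thromboxane and leukotrienes. They were listed by gene symbol for their place in the pathway, with earlier results of these data known, and each of PLA2G4A, PTGS1, PTGS2, PTGES, TBXAS1, PTGER2, PTGER4, ALOX5, ALOX5AP and LTA4H matched 1 row among the 61517 genes of the count table. The table holds poly-A-selected RNA sequencing of THP-1, an established human monocytic leukaemia line. Per the labels and the design text, all cells were differentiated to macrophages and given lipopolysaccharide (LPS, a bacterial Toll-like receptor ligand) and ATP, a combination that triggers pyroptosis, an inflammatory lytic cell death. The control group is 3 libraries with no drug, and the ruxolitinib group is 3 libraries of cells that also received ruxolitinib, an inhibitor of the kinases JAK1 and JAK2 (the treatment label spells it Lukotinib). One cell line stands behind all 6 libraries, no unstimulated cells were analysed here, and the labels do not name the differentiating agent, the drug dose or how long the cells were exposed.

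Phospholipase A2 frees arachidonic acid from membranes, and the acid then enters one of several branches. In the cyclooxygenase branch, PTGS1 (COX-1) or PTGS2 (COX-2) makes prostaglandin H2, which terminal synthases convert to prostaglandin E2 or thromboxane A2, and prostaglandin E2 acts on macrophages largely through the cAMP-coupled receptors EP2 and EP4. In the leukotriene branch, the lipoxygenase ALOX5 works with its membrane partner FLAP (gene ALOX5AP), and LTA4H then makes the neutrophil attractant leukotriene B4. PTGS2 is a classic LPS-induced gene of macrophages, whereas PTGS1 is usually described as constitutive.

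The comparison asked how JAK inhibition changed these transcripts in stimulated macrophages. With ruxolitinib, PTGS2 and the prostaglandin E2 receptor genes PTGER2 and PTGER4 rose, while PTGS1, the thromboxane synthase gene TBXAS1 and the phospholipase gene PLA2G4A fell. The PLA2G4A call was the least stable, lost in 7 of 17 alternative fits. In the leukotriene branch ALOX5 fell 4.70-fold and ALOX5AP rose 1.15-fold, but the ALOX5AP call was lost with the batch number as a block (adjusted p = 0.0537). LTA4H did not pass the test, and PTGES, the inducible prostaglandin E synthase gene, was too low to test. Levels are CPM (read counts scaled to a common library size with TMM factors), given as mean ± SD over 3 libraries per group, and adjusted p-values come from edgeR's quasi-likelihood test with Benjamini-Hochberg adjustment over all genes tested.

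The libraries held 17757595 to 24533979 counts, and a count of 0 in one of them allows up to 0.122 to 0.169 CPM, for counting error only. On the log2(CPM + 1) scale, libraries of a group correlated at 0.994 to 0.996 across genes, and libraries of different groups at 0.980 to 0.983. The p-values measure the spread between these libraries, which may be technical, since no label says that they came from separate cultures. Each drug library shares a batch number with 1 control library, and differences within those batches are given beside the fits of the members.

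The start-site windows of the pair of cyclooxygenase genes are printed because these genes had the highest CPM of the members and moved in opposite directions. They come from RefSeq on GRCh38.p14, which held windows for 9 of the 10 members, and each runs from 250 bases before to 50 bases after a start site. Capitals mark matches on either strand to the cAMP response element half-site TGACG or to the TATA box TATAAA.

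PTGS2, chr1:186680374-186680673, minus strand: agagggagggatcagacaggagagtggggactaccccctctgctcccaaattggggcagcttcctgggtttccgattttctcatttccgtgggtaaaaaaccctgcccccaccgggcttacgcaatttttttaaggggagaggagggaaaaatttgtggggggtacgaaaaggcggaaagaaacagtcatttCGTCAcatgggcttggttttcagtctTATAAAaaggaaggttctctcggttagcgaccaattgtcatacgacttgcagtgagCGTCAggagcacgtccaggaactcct
PTGS1, first start, chr9:122370283-122370582, plus strand: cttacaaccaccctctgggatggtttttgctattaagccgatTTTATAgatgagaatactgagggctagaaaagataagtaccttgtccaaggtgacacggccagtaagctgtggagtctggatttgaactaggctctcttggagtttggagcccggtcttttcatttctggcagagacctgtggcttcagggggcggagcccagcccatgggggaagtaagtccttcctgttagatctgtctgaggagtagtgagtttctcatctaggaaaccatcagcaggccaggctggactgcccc
PTGS1, second start, chr9:122375052-122375351, plus strand: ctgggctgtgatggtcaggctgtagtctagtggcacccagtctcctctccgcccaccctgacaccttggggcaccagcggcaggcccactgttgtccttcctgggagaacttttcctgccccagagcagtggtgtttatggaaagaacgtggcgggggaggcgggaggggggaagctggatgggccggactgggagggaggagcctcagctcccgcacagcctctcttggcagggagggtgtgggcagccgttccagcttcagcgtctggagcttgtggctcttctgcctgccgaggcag

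In the PTGS2 window the TATA box starts at position -32 from the start site and the half-sites, both read on the opposite strand, lie at -58 and 25. The first PTGS1 window has a TATA match at -208 on the opposite strand, and the second has none of the letters searched. Of 35116 windows of this length, 11.5% hold TATAAA and 24.6% hold TGACG. PTGER2 also holds TGACG, at -137, and PTGER4 holds the NF-kB consensus at -244, which 5.91% of the windows hold. The TBXAS1 window holds TATAAA at -140 and, on the opposite strand, at -43. The windows of PLA2G4A, PTGES, ALOX5AP and LTA4H hold none of the letters searched. The STAT-type sites TTCNNNGAA (a GAS element, in 7.66% of windows) and GAAANNGAA (the core of an ISRE, in 8.11%) were found in 0 of the 10 windows of these 9 genes. A match or its lack describes only these letters in these windows.

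PLA2G4A, the calcium-dependent cytosolic phospholipase A2 that releases arachidonic acid, lies on chromosome 1 at 186828953 to 186988981. Its levels were 7.49, 7.45 and 7.30 CPM in control replicates 1 to 3, and 4.62, 6.22 and 4.99 CPM in ruxolitinib replicates 1 to 3. The groups did not overlap, with ruxolitinib replicate 2 nearest to control. The log2 fold change was -0.49 ± 0.14 (SE, n = 3 per group, adjusted p = 0.0178), and the within-batch log2 differences were -0.70, -0.26 and -0.55. In bulk RNA, less transcript per cell and fewer cells with the transcript cannot be told apart. The call was lost by DESeq2 (adjusted p = 0.0583), without control replicate 1 (0.0505), control replicate 3 (0.05001), ruxolitinib replicate 1 (0.0931) or ruxolitinib replicate 3 (0.0558), and when the batch 1 pair (0.193) or the batch 3 pair (0.109) was left out.

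PTGS2, on chromosome 1 at 186671791 to 186680427, was the most abundant member by CPM. It stood at 718, 653 and 659 CPM in control replicates 1 to 3 and at 1021, 1042 and 1019 CPM in ruxolitinib replicates 1 to 3. All 3 drug libraries lay far above the highest control. It rose 1.52-fold, a log2 fold change of 0.60 ± 0.05 (SE, adjusted p = 2.01e-06), with within-batch differences of 0.51, 0.67 and 0.63. Among all 61517 genes, PTGS2 ranked between 161 and 171 by CPM in the control libraries and between 99 and 101 with ruxolitinib. It lies 148525 bases from PLA2G4A, and these neighbours moved in opposite directions. The annotation (GENCODE 29) places 1 gene between them, the noncoding PACERR, which begins 194 bases upstream of the PTGS2 start on the opposite strand and had 3 to 6 counts in control libraries and 1 to 3 with ruxolitinib.

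PTGS1 (chromosome 9, 122370530 to 122395703) was at 408, 402 and 405 CPM in control and at 356, 352 and 356 CPM with ruxolitinib. The spread within each group was under 3 CPM (SD 2.98 and 2.48), and the groups did not overlap. PTGS1 fell by 0.19 ± 0.04 on the log2 scale (SE, adjusted p = 0.00322), and the within-batch differences of -0.20, -0.19 and -0.18 were nearly equal. With the batch 1 pair of libraries left out, the log2 fold change was again -0.19 but did not pass (adjusted p = 0.129).

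Because the pair moved apart, the ratio of PTGS2 to PTGS1 counts went from 1.67 ± 0.0772 in control to 2.90 ± 0.0564 with ruxolitinib (SD, n = 3 each). The single ratios were 1.76, 1.62 and 1.63 in control and 2.87, 2.96 and 2.86 with the drug, so the groups lay well apart. PTGS2 supplied 61.9% to 63.8% of the summed cyclooxygenase CPM in control libraries and 74.1% to 74.8% with ruxolitinib. The sum itself was 1055 to 1127 CPM in control and 1375 to 1393 CPM with the drug.

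**Figure D1:**
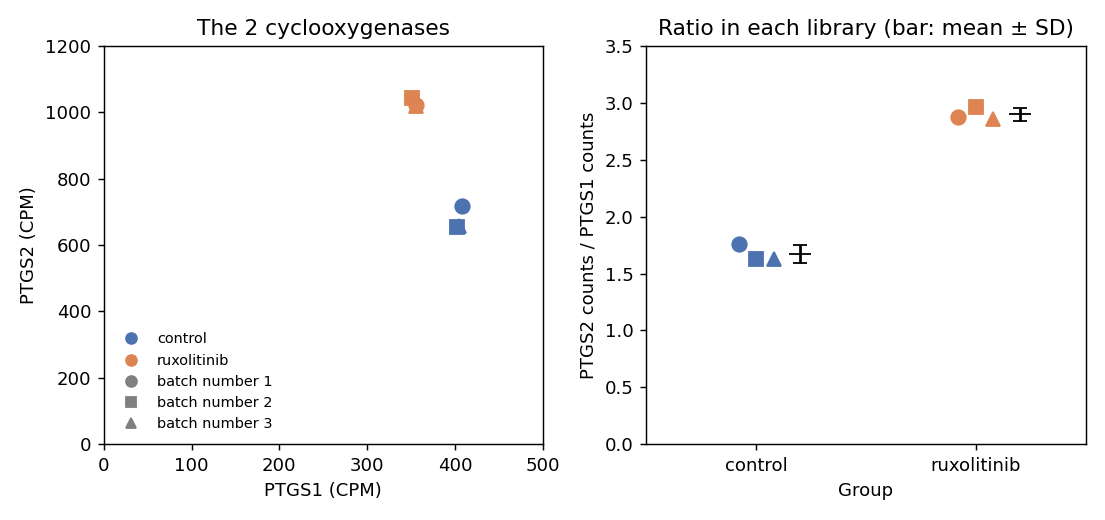
Left, PTGS2 against PTGS1 in CPM, 1 point per library; right, the ratio of their counts in each library, with mean ± SD (n = 3 per group). Ruxolitinib libraries sit at higher PTGS2, lower PTGS1 and a ratio of 2.86 to 2.96, against 1.62 to 1.76 in control.

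Both terminal synthase genes among the members had lower CPM than the cyclooxygenase genes. TBXAS1 (chromosome 7, 139777051 to 140020325), which makes thromboxane A2, was at 27.0, 25.2 and 26.9 CPM in control and at 18.7, 17.2 and 19.0 CPM with ruxolitinib. Its groups did not overlap, and it fell 1.44-fold (log2 fold change -0.53 ± 0.07, adjusted p = 2.00e-04), with within-batch differences of -0.53, -0.56 and -0.50. PTGES (chromosome 9, 129738331 to 129753047), the inducible microsomal synthase that couples to PTGS2, had 7, 5 and 3 counts in control and 10, 10 and 8 with ruxolitinib. These counts did not clear the filter, so it has no test here. With no filter, its log2 fold change was 1.08 ± 0.58 (SE, adjusted p = 0.259). Every drug library was above every control library in PTGES CPM, at 0.430 to 0.536 against 0.130 to 0.394.

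Both genes for the cAMP-coupled prostaglandin E2 receptors rose. PTGER2 (EP2, chromosome 14, 52314305 to 52328606) was at 5.92, 5.74 and 5.08 CPM in control and at 7.93, 8.15 and 8.38 CPM with ruxolitinib. The log2 fold change was 0.55 ± 0.12 (SE, adjusted p = 0.00440), a 1.46-fold rise, and within batches the differences were 0.42, 0.51 and 0.72. PTGER4 (EP4, chromosome 5, 40679498 to 40693735) was at 99.3, 99.1 and 97.9 CPM in control and at 117, 121 and 122 CPM with ruxolitinib. It rose 1.21-fold (log2 fold change 0.28 ± 0.04, adjusted p = 5.46e-04), with within-batch differences of 0.23, 0.29 and 0.31. For each receptor, every drug library lay above every control library. The PTGER2 call was lost when the batch 3 pair was left out (adjusted p = 0.0601).

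In the leukotriene branch, ALOX5 (chromosome 10, 45374176 to 45446119) had the largest change of the members. It had 34, 51 and 32 counts in control, or 1.92, 2.03 and 1.39 CPM, and 6, 6 and 9 counts with ruxolitinib, or 0.315, 0.322 and 0.483 CPM. Every drug library was below every control library. The log2 fold change was -2.23 ± 0.32 (SE, adjusted p = 2.49e-04), and 0.633% of all genes tested had a lower one. Within batches the log2 differences were -2.60, -2.66 and -1.52. ALOX5 cleared the filter on low counts through the control libraries alone, so its being tested already depended on the level there, and its drug values rest on 21 counts in all.

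ALOX5AP (FLAP, chromosome 13, 30713478 to 30764426), which presents arachidonic acid to ALOX5, was abundant by contrast. It was at 109, 106 and 114 CPM in control and at 120, 131 and 126 CPM with ruxolitinib. The groups were separate but close, and the log2 fold change was 0.20 ± 0.05 (SE, adjusted p = 0.0112), with within-batch differences of 0.14, 0.31 and 0.15. The call was lost with the batch number as a block (adjusted p = 0.0537), without control replicate 1 (0.0526) and when the batch 1 pair was left out (0.103). LTA4H (chromosome 12, 96000828 to 96043520), the hydrolase that forms leukotriene B4, was at 39.4, 36.5 and 36.4 CPM in control and at 35.0, 37.6 and 31.7 CPM with ruxolitinib. These groups overlapped, and the log2 fold change was -0.10 ± 0.07 (SE, adjusted p = 0.314). In GENCODE 29, LTA4H is the only member whose exons share bases with another gene, 582 and 121 bases with a pair of antisense genes that had 0 to 11 counts per library.

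**Figure D2:**
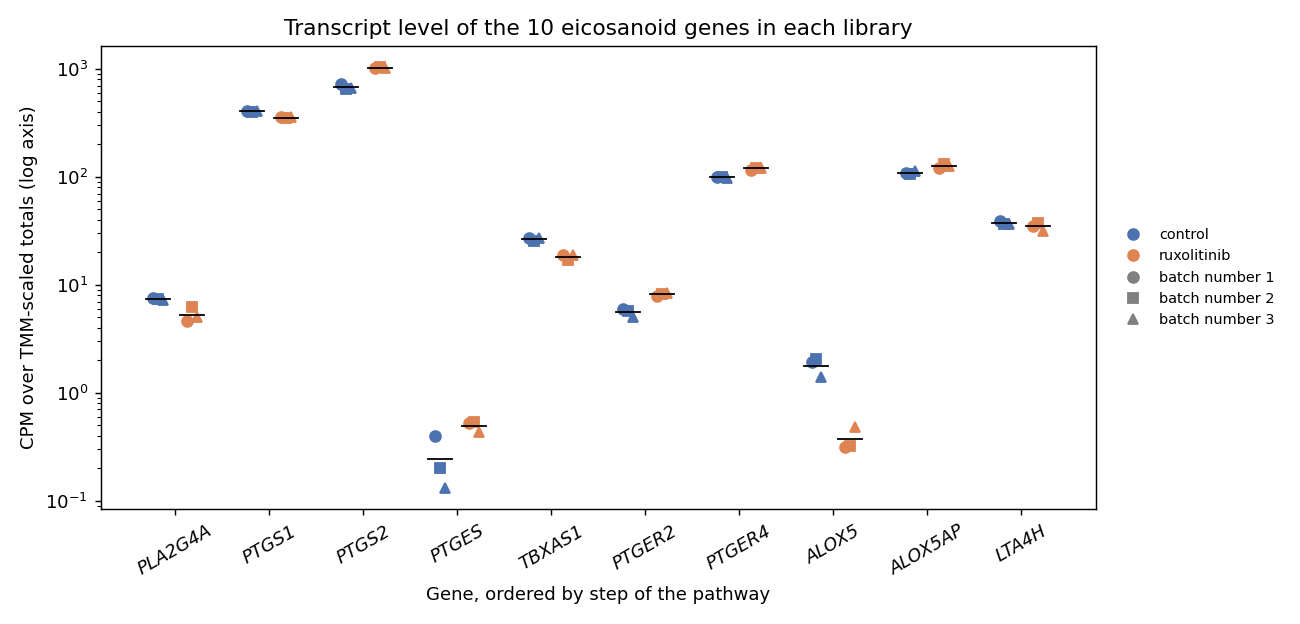
CPM of the 10 genes in each library (log axis), with control and ruxolitinib side by side, symbols for the batch number and a bar at each mean. PTGS2 rises from 677 to 1027 CPM on average, and ALOX5 falls from 1.78 to 0.373 CPM.

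Of the 10 members 9 could be tested; 4 were higher with ruxolitinib (PTGS2, PTGER2, PTGER4 and ALOX5AP), 4 were lower (PLA2G4A, PTGS1, TBXAS1 and ALOX5) and LTA4H did not pass. Across the 14051 genes tested, 29.7% passed, 13.6% higher and 16.1% lower. The groups did not overlap for 8 of the 9 tested members, against 44.2% of all genes tested. The median log2 fold change was -0.10 for the 9 members and -0.01 over all genes, and the median absolute value was 0.49 for the members and 0.21 over all genes. The members were picked with earlier results of these data known, so these counts describe them and support no statement about the pathway as a whole. PTGS2, TBXAS1, PTGER4 and ALOX5 passed under all 17 alternative fits. ALOX5 cleared the filter through the control libraries alone, where it was high. Its place among the 4 lower and among the 8 members with groups apart therefore depended on that group.

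**Figure D3:**
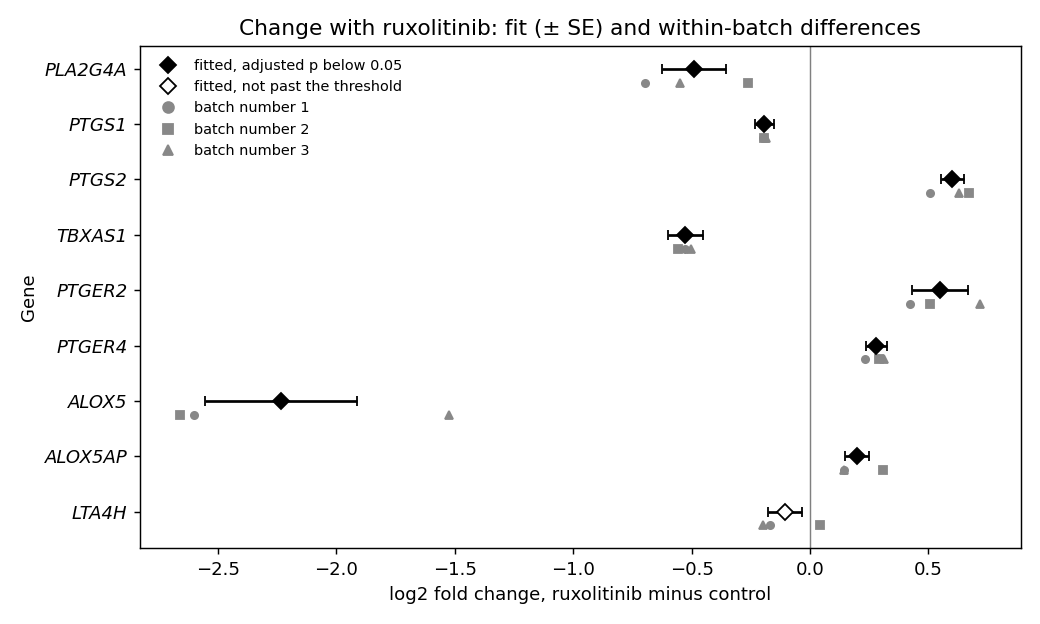
Fitted log2 fold change (diamonds, bars ± SE) of the 9 tested members, with the log2 difference within each batch number below each. The 3 within-batch values share a sign for 8 members, from ALOX5 at -2.66 to -1.52 to PTGER2 at 0.42 to 0.72, and straddle 0 for LTA4H.

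Per kilobase of annotated exon, which allows levels to be compared between genes, PTGS2 led in control with 128 ± 6.84 CPM per kb (SD). PTGS1 at 70.0 ± 0.514 and ALOX5AP at 63.8 ± 2.44 CPM per kb followed, then PTGER4 at 24.9 ± 0.191. LTA4H, TBXAS1, PLA2G4A and PTGER2 lay between 5.09 and 2.26 CPM per kb, with ALOX5 at 0.477 and PTGES at 0.127. With ruxolitinib PTGS2 was at 195 ± 2.42 CPM per kb, ALOX5AP stood above PTGS1 (73.3 ± 3.01 against 61.2 ± 0.428), PTGER2 above TBXAS1 (3.30 against 2.95) and PTGES above ALOX5 (0.262 against 0.100). No neighbours in either order overlapped over the 3 libraries of a group. The place of PTGES above ALOX5 rests on few counts, with ruxolitinib 10, 10 and 8 against 6, 6 and 9. These overlap before division by exon length. Exon length here is the union over all annotated transcripts, so close neighbours depend on which transcripts are present.

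Beyond the 10 members, 91 other genes of the pathway in 8 lists were read from the same fit. Of these 55 could be tested, and 9 were higher, 14 lower and 32 did not pass (41.8% past the threshold, against 29.7% of all genes). The list of cAMP signalling genes, with 15 tested, gave 11 of the 23 that passed. Arachidonate release and reacylation stood at 27.8%, and prostanoid synthases, turnover and transport at 25%. Each other list had at most 5 tested genes. The lists were chosen with earlier results of these data known, so these shares describe only them. The median log2 fold change of the 55 genes was 0.01.

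Among 18 tested genes of arachidonate release and reacylation, 5 fell, 0 rose and 13 did not pass. The share past the threshold, 27.8%, was near the 29.7% of all genes tested, so the count says nothing particular of the list. ANXA1, whose protein annexin A1 restrains cytosolic phospholipase A2, went down from 99.0 ± 4.47 to 65.0 ± 4.07 CPM, a log2 change of -0.61 ± 0.06 (adjusted p = 1.08e-05). PLA2G4C, a calcium-independent relative of PLA2G4A, fell from 16.2 ± 0.599 to 10.5 ± 0.664 CPM (adjusted p = 2.65e-04). The monoacylglycerol lipase gene MGLL, whose enzyme can supply arachidonic acid from an endocannabinoid, fell from 113 ± 13.5 to 77.4 ± 5.88 CPM. The acyl-CoA synthetase genes ACSL5 and ACSL1 fell by 0.28 ± 0.04 and 0.26 ± 0.05 on the log2 scale. Their relative ACSL4, which prefers arachidonic acid, was at 532 ± 31.3 and 526 ± 35.0 CPM (log2 fold change -0.01 ± 0.06, adjusted p = 0.881). The secreted phospholipase genes PLA2G2A, PLA2G5 and PLA2G10 had 0 counts in all 6 libraries.

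Of 8 tested prostanoid synthases, turnover and transport genes, 1 rose, 1 fell and 6 did not pass. That is 25% past the threshold, near the 29.7% of all genes tested, so the counts describe nothing particular to the list. The carbonyl reductase gene CBR1, whose enzyme can reduce prostaglandin E2, fell by 0.58 ± 0.12 on the log2 scale, from 10.7 ± 0.671 to 7.14 ± 0.983 CPM (adjusted p = 0.00368, and 0.0911 with the batch 1 pair left out). AKR1C3, a prostaglandin F synthase gene, was low, at 5, 19 and 10 counts in control and 21, 26 and 18 with ruxolitinib. It cleared the filter on low counts through the ruxolitinib libraries, where it was high, so its being tested depended on that group. Its log2 fold change was 1.17 ± 0.37 (adjusted p = 0.0324), and the call was lost in 7 of 16 alternatives, including DESeq2 (0.0886), each library left out except control replicate 2 and ruxolitinib replicate 3 (0.0815 to 0.111), and the pair of batch 1 (0.189) or batch 3 (0.107). Close relatives of AKR1C3 share sequence with it, so its reads may be split between genes. The constitutive prostaglandin E synthase gene PTGES3 was at 382 ± 12.9 and 392 ± 4.43 CPM (adjusted p = 0.564) and PTGES2 at 4.91 ± 1.53 and 5.15 ± 0.411 CPM (adjusted p = 0.875). Genes of other prostanoid branches were near 0: HPGDS had 0 counts in all 6 libraries, PTGIS 1, and HPGD, the main prostaglandin-degrading enzyme gene, 1, while PTGDS had 15 counts in control and 2 with ruxolitinib.

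Among prostanoid receptors other than EP2 and EP4, 3 of 7 could be tested and 0 passed, too few to set against the 29.7% of all genes tested. PTGER3 (EP3) was at 4.65 ± 0.290 and 3.65 ± 0.702 CPM (log2 fold change -0.35 ± 0.17, adjusted p = 0.153). The prostacyclin receptor gene PTGIR was at 3.73 ± 1.15 and 3.78 ± 0.738 CPM, and the thromboxane receptor gene TBXA2R at 0.853 ± 0.367 and 1.10 ± 0.117 CPM. PTGER1, PTGDR, PTGDR2 and PTGFR had at most 5 counts in any library.

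Of 5 tested leukotriene synthesis, turnover and transport genes, 2 fell and 3 did not pass. That is 40% past the threshold, against 29.7% of all genes tested, on too few genes to set the list apart. MGST3, a microsomal glutathione transferase gene related to leukotriene C4 synthase, fell by 0.46 ± 0.08 on the log2 scale (adjusted p = 6.71e-04). COTL1, whose protein binds ALOX5, fell from 251 ± 5.03 to 194 ± 2.48 CPM (adjusted p = 3.49e-05). LTC4S, the leukotriene C4 synthase gene itself, had 0 to 4 counts per library. Among leukotriene receptors, CYSLTR1, which binds cysteinyl leukotrienes, had 91, 134 and 140 counts in control and 46, 39 and 37 with ruxolitinib. Its level fell by 1.35 ± 0.16 on the log2 scale, from 5.52 ± 0.502 to 2.16 ± 0.224 CPM (adjusted p = 6.70e-05). The leukotriene B4 receptor gene LTB4R was at 1.48 ± 0.799 and 1.71 ± 0.576 CPM (adjusted p = 0.768). Of 9 other lipoxygenases and lipoxin or resolvin receptors, 2 could be tested and 0 passed, where 29.7% of all genes tested passed. ALOX15 and ALOX12 had at most 3 counts per library. In the cytochrome P450 and epoxide branch, 2 of 7 genes could be tested: CYP1B1 fell by 0.25 ± 0.05 on the log2 scale and the epoxide hydrolase gene EPHX1 rose by 0.29 ± 0.07 (adjusted p = 0.00171 and 0.00723). With the batch 1 pair left out neither passed (adjusted p = 0.0944 and 0.0791), nor did EPHX1 with the batch 3 pair left out (0.0766).

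The list of cAMP signalling genes below EP2 and EP4 could be tested in full, and of its 15 genes 7 rose, 4 fell and 4 did not pass. That is 73.3% past the threshold, where 29.7% of all genes tested passed, 13.6% higher and 16.1% lower. PDE4B, a phosphodiesterase that degrades cAMP and is itself induced by cAMP, rose by 0.77 ± 0.05 on the log2 scale, from 133 ± 3.48 to 227 ± 11.2 CPM (adjusted p = 3.12e-07). PDE4D rose from 46.4 ± 2.56 to 61.3 ± 2.19 CPM (0.40 ± 0.06), and PDE4A by 0.38 ± 0.11 on the log2 scale (adjusted p = 0.0232). The within-batch differences of PDE4A were 0.56, 0.02 and 0.60, so the batch 2 pair hardly differed. The protein kinase A subunit genes PRKACB and PRKAR1A rose by 0.41 ± 0.09 and 0.19 ± 0.05 on the log2 scale (adjusted p = 0.00386 and 0.0206). The subunit genes PRKACA and PRKAR2B did not pass, at 0.03 ± 0.08 and 0.10 ± 0.19 (adjusted p = 0.788 and 0.726). CREB1 and CREM, which encode transcription factors of the cAMP response, rose by 0.18 ± 0.05 and 0.22 ± 0.06 (adjusted p = 0.0260 and 0.0105). Over all wider pathway genes, 9 were called higher and 14 lower. With the batch number as a block these were 5 and 13, and without the batch 1 pair 3 and 9. PDE4B, PDE4D, AKR1C3 and EPHX1 were among the 5, so most of PDE4A, PRKACB, PRKAR1A, CREB1 and CREM lost their calls there. On the synthesis side, the adenylyl cyclase genes ADCY7, ADCY3 and ADCY4 fell by 1.19 ± 0.21, 0.45 ± 0.07 and 1.21 ± 0.38 on the log2 scale, and GNAS, which encodes the stimulatory G protein subunit, fell by 0.23 ± 0.04. The cyclase genes ADCY6 and ADCY9 did not pass, at log2 fold changes of -0.03 ± 0.21 and 0.12 ± 0.15 (adjusted p = 0.922 and 0.619). ADCY4 rests on 6 to 30 counts per library and cleared the filter through the control libraries alone, where it was high, so its place among the 4 that fell depended on that group.

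**Figure D4:**
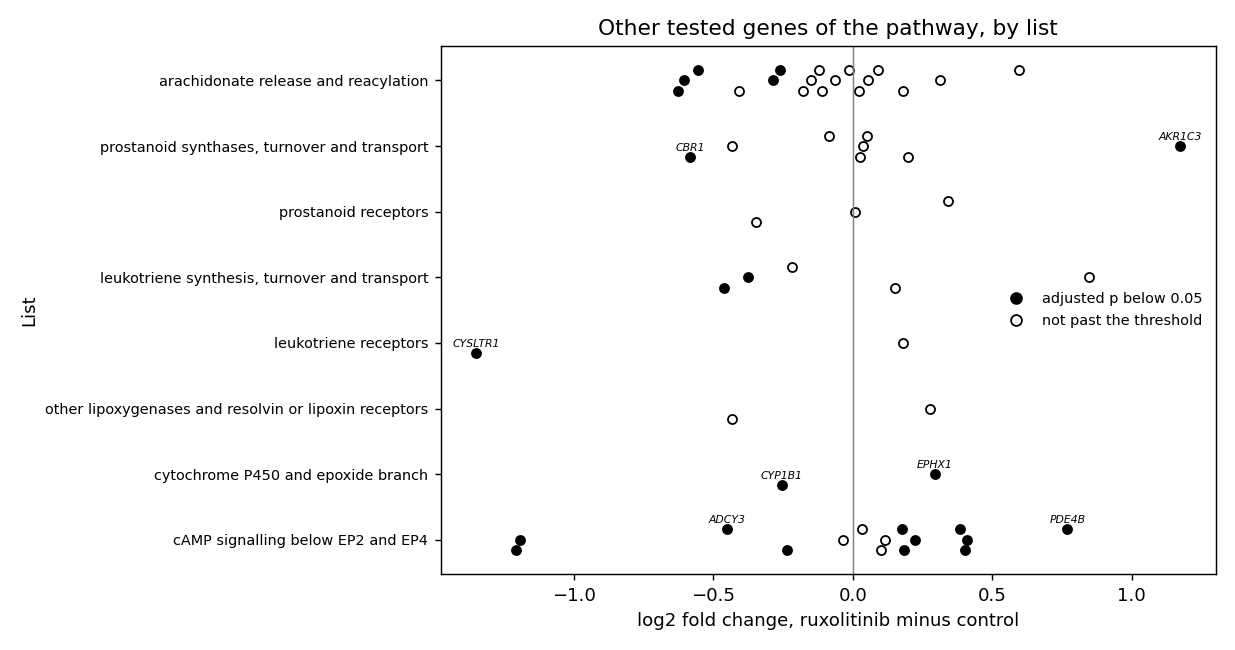
Log2 fold change of the 55 tested genes outside the 10 members, by list, filled where the adjusted p passed. The release list has 5 filled points of 18, a share near that of all genes tested, CYSLTR1 stands at -1.35, and the cAMP list has 7 filled points above 0 and 4 below.

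The libraries carried most of the markers listed for the labelled cell type. From that list MRC1 and MARCO were low, at 0.251 and 0.239 CPM in control and 0.265 and 0.374 CPM with ruxolitinib. Of 15 macrophage and monocyte markers 13 had a mean of at least 1 CPM. Of the 13 tested 12 fell and 1 rose (LYZ, log2 fold change 0.20). Over all genes tested 29.7% passed, 16.1% lower and 13.6% higher. The 15 markers summed to 2404 to 2442 CPM in control and 1534 to 1636 CPM with ruxolitinib. The part this had in the falls of ALOX5, TBXAS1, PTGS1 and PLA2G4A was not tested. Of 8 undifferentiated precursor markers 4 were tested and 0 passed, with a median log2 fold change of 0.40. The 8 summed to 6.65 to 10.2 CPM in control and 8.36 to 10.8 CPM with the drug. Among those not tested, KIT had 5, 2 and 4 counts in control and 12, 7 and 12 with ruxolitinib. CTSG had 21, 6 and 2 in control and 4, 1 and 11 with ruxolitinib, and MPO and CD34 at most 2 per library. Mast cell markers summed to at most 0.638 CPM with TPSAB1 at 0 counts, and lymphocyte markers to at most 0.578 CPM with CD3D and CD3E at 0. Platelet markers summed to 20.7 to 22.3 CPM in control and 5.90 to 6.87 CPM with ruxolitinib, of which PPBP gave 21.1 ± 0.838 and 6.29 ± 0.382 CPM while PF4 had 0 counts. Neutrophil markers summed to 99.1 to 101 and 98.4 to 114 CPM, nearly all from MMP8, and FCGR3B had at most 1 count per library. Epithelial and fibroblast markers summed to 2.48 to 4.06 and 2.21 to 2.47 CPM.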

How the data were processed

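RNA was sequenced after poly-A selection in 6 THP-1 libraries, 3 control and 3 with ruxolitinib. The authors deposited raw counts per gene, and the genome build was hg38 per the submitters' processing notes. The aligner, counter, annotation release and strand setting are each not given in the sources used. Groups came from the sample titles and treatment labels. In the table headers the drug columns lack the plus sign of the titles.

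All 61517 genes entered 1 fit in edgeR 4.0.16 (R 4.3.3): filterByExpr with minimum count 10 and minimum total 15, which kept 14051 genes, TMM factors, glmQLFit and glmQLFTest with robust dispersions, group as the only term, Benjamini-Hochberg adjustment and a threshold of 0.05. CPM was taken over the TMM-scaled totals of the genes kept. Log2 fold changes are ruxolitinib minus control, and SEs were derived from the F statistic. Before use the fit was run on simulated counts with known changes, drawn from its own dispersions with few genes changed and no batch effect. That run checked the working of the code and cannot show how the fit behaves on these data. Gene positions and exon lengths came from GENCODE 29 on GRCh38, which held 58340 of the identifiers.

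The members and lists were chosen with earlier results of these data known. Named genes are all members and, per list, up to 4 genes past the threshold by smallest adjusted p, plus receptors and a few branch enzymes with their counts. ACSL1, ACSL4, GNAS, ADCY4, ADCY6, ADCY9, PACERR, PTGES2, PTGES3, PLA2G2A, PLA2G5 and PLA2G10 were chosen for naming only once their values had been seen. The same holds for PDE4A, PRKACA, PRKACB, PRKAR1A, PRKAR2B, CREB1 and CREM, and for the markers KIT, CTSG, MPO and CD34.

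The labels give a batch number shared by 1 control and 1 drug library, and the pairing rests on that label. Across genes, the departures of a batch's pair of libraries from their groups' means correlated at -0.03, -0.31 and -0.18. The 17 alternatives were the replicate block, 3 other scalings, 2 other filters, DESeq2 1.42.0, voom in limma 3.58.1, and leaving out each library or each batch pair.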

Additional observations from a re-analysis of the deposited data

How the results depend on the processing

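Each member that passed kept its direction under all 17 alternatives. So did the list genes named by the rule, under each alternative that gave them a value. ACSL1, GNAS, ADCY4, PDE4A, PRKACB, PRKAR1A, CREB1 and CREM were not followed individually through the alternatives. With the replicate number as a block, 2915 of all genes, 7 members and 18 of the wider pathway genes passed, against 4175, 8 and 23, and of the members only ALOX5AP lost its call. Leaving out single libraries or both libraries of a batch gave 1983 to 5034 genes in all, 5 to 8 members and 12 to 26 wider pathway genes. The lowest of each came without both libraries of batch 1, where PLA2G4A, PTGS1 and ALOX5AP did not pass. Over 153 values of the 9 tested members under alternatives, 12 fell short of a call that the reported fit made, 7 of them for PLA2G4A. With other scalings or filters the count of members called was 8 throughout. Depth limits PTGES and ALOX5: PTGES had 15 counts in control and 28 with ruxolitinib in all, and ALOX5 117 and 21.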

Other observations

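The partners of leukotriene synthesis differed widely in abundance and moved in opposite directions. Counts of ALOX5AP exceeded those of ALOX5 by 63.6 ± 16.1 to 1 in control and by 349.7 ± 78.0 to 1 with ruxolitinib (SD, n = 3 each). The single ratios were 56.9, 52.0 and 81.9 in control and 382, 406 and 261 with the drug, and the denominators with the drug were 6, 6 and 9 counts. Per kilobase of exon the ratios were 138 ± 35.0 and 760.5 ± 169.7.

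The 10 members together made up 1337 to 1417 CPM in control and 1681 to 1715 CPM with ruxolitinib. The pair of cyclooxygenase genes gave 78.6% to 79.5% of that sum in control libraries and 81.2% to 81.9% with the drug.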
